A study of Mus musculus with 132 samples.

Results

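The comparison set CD41+ hematopoietic progenitor cells (HPCs) whose CTCF site upstream of the Runx1 P2 promoter had been deleted (P2-CTCF-KO) against wild-type HPCs made in the same way. Libraries were taken by genotype, assay and cell stage from their labels. This gave 5 P2-CTCF-KO and 4 wild-type libraries, 9 of the 23 poly(A)-minus RNA-seq libraries of the series. All came from clones of the male mouse embryonic stem cell line E14-TG2a (strain 129/Ola). The cells were differentiated without serum in BMP4 and, from day 3, Activin A and bFGF. Flk1+ mesoderm was sorted at day 4 and cultured in SCF and VEGF, and CD41+ cells were taken at day 7. The P2-CTCF-KO libraries came from clones D2.1, D10.1 and E9.1, with a second library (D2.1-2 and D10.1-2) for each of D2.1 and D10.1. The wild-type libraries came from clones C6.1, C8.1 and B9.3, with a second library, B9.3-2, for B9.3. The 3 HPC libraries of P1-CTCF-KO clones E7.1, E7.2 and E9.1, which lack the CTCF site upstream of the other Runx1 promoter, shared the fit and are used only for comparison. The clones were single colonies edited with Cas9 and a pair of guides around the motif, so that each genotype is 3 clones, and within a clone its other changes cannot be told apart from the deletion. The study counts each second library as an experiment of its own, and the labels give no further detail.

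Runx1 encodes the DNA-binding subunit of a transcription factor that blood cells need to arise from hemogenic endothelium, and it acts together with Cbfb. It has a distal promoter, P1, and a proximal promoter, P2, which are used in different proportions as blood develops. CTCF binds DNA in an orientation-dependent way and, with cohesin, holds the bases of chromatin loops. The poly(A)-minus fraction is rich in unspliced nuclear transcripts, so that counts over introns and exons follow transcription more closely than those of polyadenylated RNA.

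The sequences under the deleted site and under the corresponding site of P1 are shown because they define the genotypes. The P2 window is chr16:92698919-92699218 (mm9, plus strand, opposite to the gene), 300 bases inside a CTCF peak of 524 bases called in the blood progenitor line 416B. The P1 window is the whole 231-base peak, chr16:92828270-92828500 (mm9, plus strand). Capitals mark the only match to the CTCF core letters AGNNGGCAG on either strand.
P2 CTCF window: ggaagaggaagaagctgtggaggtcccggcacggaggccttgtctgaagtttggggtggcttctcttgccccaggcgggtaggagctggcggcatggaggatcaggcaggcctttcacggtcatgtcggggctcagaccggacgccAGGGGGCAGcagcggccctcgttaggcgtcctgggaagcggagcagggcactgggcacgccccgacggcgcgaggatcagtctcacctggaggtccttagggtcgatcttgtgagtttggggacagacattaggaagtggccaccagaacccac
P1 CTCF window: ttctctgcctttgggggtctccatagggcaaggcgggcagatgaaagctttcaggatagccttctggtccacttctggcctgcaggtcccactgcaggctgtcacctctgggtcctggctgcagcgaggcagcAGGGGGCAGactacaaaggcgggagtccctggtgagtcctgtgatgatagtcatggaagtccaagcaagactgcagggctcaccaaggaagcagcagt
Both windows held the same letters, AGGGGGCAG, on the plus strand. The P2 match, at positions 92699065 to 92699073, lay 1492 bases upstream of the P2 start site at 92697573. That peak is in an intron of 2 Runx1 transcripts that start at P1 and touches no Runx1 exon. No HPC ATAC-seq peak overlapped it. The HPC ATAC-seq peak nearest to the P2 start site ran from 92697584 to 92697773. Of 44513 windows of 300 bases centred on CTCF peaks, 20.2% held a match, against 8.36% of 44486 windows 5000 bases downstream. The deleted bases themselves are not given in the labels.

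The 9 libraries held 7805102 to 13513677 counts. Ribosomal RNA and other multi-locus entries (186 entries) took 87.8 to 89.1% of them. The genes Cmss1, Cdk8, Lars2, Camk1d and Gphn took another 6.47 to 7.68%, and all genes outside both sets together 320463 to 596488 counts. Levels are given as CPM, counts scaled by library total and edgeR's TMM factor, of which 1 CPM stood for 8.22 to 14.2 counts, so that genes below about 1 CPM rest on few reads. The CD41 gene Itga2b, Runx1 and the stem cell factor receptor gene Kit were detected in each of the 9, and the pan-leukocyte gene Ptprc had 0 to 3 counts, beside a gate for CD41+ CD45- cells. Of the cardiac genes, Myl7 and Nkx2-5 had 0 counts in all 9, while Tnnt2 had 0 to 74 counts, the most in D10.1.

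Runx1 (chr16:92601710-92826319, minus strand) was transcribed at a level that overlapped between genotypes. Its CPM was 53.6 in D2.1, 141 in D10.1, 76.6 in D10.1-2, 43.0 in D2.1-2 and 56.2 in E9.1, against 78.6 in C6.1, 127 in C8.1, 89.0 in B9.3 and 71.4 in B9.3-2. The P2-CTCF-KO libraries held both the highest and the 3 lowest values of the 9. The means were 74.0 ± 39.2 (SD, n = 5) and 91.5 ± 24.8 (SD, n = 4) CPM, a log2 fold change of -0.31 (SE 0.35). A 2-sided exact permutation test over 126 splits gave p = 0.437. The splits treat libraries as independent, although the repeats of D2.1, D10.1 and B9.3 share a clone with the first library. Without D2.1 the P2-CTCF-KO mean was 79.1 ± 43.3 CPM (n = 4, exact permutation p = 0.6). The counts join transcripts from both promoters and do not separate P1 from P2 transcription.

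No gene passed the test between P2-CTCF-KO and wild-type HPCs. Of 7422 genes tested by edgeR's quasi-likelihood test, 0% were called at an adjusted p under 0.05 with a log2 fold change beyond 1, and the smallest Benjamini-Hochberg adjusted p was 0.99998. At an unadjusted p under 0.05, 96 genes were higher (1.29%) and 49 lower (0.66%). The median log2 fold change was 0.03. DESeq2 called 0 genes and put 74 higher and 38 lower at an unadjusted p under 0.05. In 32 genes every P2-CTCF-KO library lay above every wild-type library (0.431%), and in 30 every library lay below (0.404%). All gene groups below are therefore described as leaning, by the count of members above 0 and their median log2 fold change, beside 54.3% above 0 and a median of 0.03 over all genes tested. None of their members was called.

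The genes without overlap were mostly of low level, and those named here were chosen after their values were seen. Dynll2, a dynein light chain, was at 1.83, 2.84, 2.58, 3.19 and 2.61 CPM in D2.1, D10.1, D10.1-2, D2.1-2 and E9.1. In C6.1, C8.1, B9.3 and B9.3-2 it was at 0.984, 1.73, 1.07 and 1.83 CPM, so that the lowest P2-CTCF-KO and the highest wild-type value were next to each other. Its log2 fold change was 0.90 (SE 0.27). Dbnl, Zscan26, Hacd3, Park7 and Rnf187 stood on the same side, with log2 fold changes of 0.70, 0.82, 0.81, 0.92 and 0.99. Abcg1, a cholesterol exporter, was lower in all 5 P2-CTCF-KO libraries, at 0.986, 1.46, 0.535, 0.797 and 1.51 CPM against 2.41, 2.35, 1.81 and 2.31 CPM in wild type (log2 fold change -1.06, SE 0.31). Fgfr1op2, Zfp949, Rit1, Erp44 and the chromatin remodeller subunit gene Smarcb1 also lay below, by -0.54, -0.65, -0.72, -0.44 and -0.43. Tgfbr3, a TGF-beta co-receptor, was at 5.98 to 7.40 CPM in P2-CTCF-KO libraries and 7.91 to 14.4 CPM in wild type (log2 fold change -0.54, SE 0.20).

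The Runx family and its partners leaned down. All 7 members were tested, 0 of 7 were higher, and their median was -0.28. Runx3 (chr4:134676559-134733905), a paralog that binds the same motif, was at 0.141, 0.366, 0.356, 0.398 and 0.603 CPM in P2-CTCF-KO libraries (2 to 6 counts each) and at 0.894, 2.98, 0.903 and 0.608 CPM in wild type (5 to 38 counts). The groups did not overlap, but E9.1 and B9.3-2 all but met. Its log2 fold change of -1.89 (SE 0.51) rested on these few counts and was not called (edgeR adjusted p = 0.99998). Runx2, the skeletal paralog, was at -1.24 (SE 0.62), on 6 to 14 counts in P2-CTCF-KO and 7 to 55 in wild-type libraries, the most in C8.1. Cbfb was at -0.28 (SE 0.49). The co-repressor genes Runx1t1, Cbfa2t2 and Cbfa2t3 were at -0.15, -0.27 and -0.15. Cbfa2t3, a partner of Tal1 and Gata1 complexes, was at 15.4 to 23.8 CPM in P2-CTCF-KO and 16.1 to 23.1 CPM in wild-type libraries. Without D2.1 again 0 of 7 were higher, with a median of -0.44. Without C8.1 the median was -0.17.

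Genes around Runx1 on chromosome 16 showed no common lean. Of 29 listed neighbours 15 were tested, 8 were higher and the median was 0.09. Without D2.1 it was 6 of 15 and -0.02. Itsn1, an endocytic scaffold gene, was at 15, 54.8, 10.3, 8.87 and 11.5 CPM in P2-CTCF-KO libraries and 12.6, 25.9, 24.9 and 11.9 CPM in wild type, highest in D10.1 and, among wild type, in C8.1 and B9.3. Mrps6, Rcan1, Gart and Son were at 0.41, 0.13, 0.41 and -0.20, with SEs of 0.39, 0.32, 0.38 and 0.17; Mrps6 overlaps Slc5a3 and its counts follow it. The CTCF and cohesin genes were level: 5 of 14 were higher, with a median of -0.06, and Nipbl, Stag1 and Stag2 were at -0.06, 0.06 and 0.07. Of 22 hematopoietic regulator genes tested 9 were higher, with a median of -0.09. Fli1, an ETS factor of blood and endothelium, was at 46.2, 68.4, 32.2, 12.6 and 23.2 CPM against 37.6, 82.1, 54.4 and 31.0 CPM. Meis1 was at 22.1, 79.0, 21, 8.47 and 14.6 CPM against 25.7, 61.5, 55.7 and 20.3 CPM. Both were at -0.49 and spread over several-fold within each genotype.

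Genes of the cytoplasmic ribosome leaned up with and without D2.1, without a called member. Of 79 listed, 42 passed the filter on low counts, 38 of them were higher, and the median was 0.44. At an unadjusted p under 0.05, 6 were higher, where 1.29% of all 7422 genes were, and 0 lower (0.66% of all). In 2 every P2-CTCF-KO library lay above every wild-type library, as in 0.431% of all genes. Rpl4 was at 11.2, 11.4, 12, 11.1 and 15.6 CPM in D2.1, D10.1, D10.1-2, D2.1-2 and E9.1. It was at 9.03, 7.14, 6.73 and 9.73 CPM in C6.1, C8.1, B9.3 and B9.3-2, a log2 fold change of 0.59 (SE 0.17). Rpl13a was at 2.75 to 4.81 CPM against 1.89 to 2.68 CPM (log2 fold change 0.70, SE 0.21). Rps3 (0.53) and Rpl8 (0.42) leaned the same way. The mean log2(CPM + 1) of the 42 genes did overlap: it was 1.36 to 1.63 in P2-CTCF-KO and 1.06 to 1.65 in wild-type libraries, with B9.3-2 the highest of all 9. Without D2.1, 36 of 41 were higher, with a median of 0.47. The second libraries of D10.1, D2.1 and B9.3 were above the first in these genes, by median log2 ratios of 0.16, 0.13 and 0.55. Genes of the mitochondrial ribosome did not share the lean (10 of 19 higher, median 0.06). Ribosomal protein genes have many processed copies, and how the deposited counts treat reads that match several copies was not tested.

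All 10 p53 targets tested (of 15 listed) were higher, with a median of 0.40. Mdm2, the ligase that degrades p53, was at 8.53, 8.24, 11.4, 7.07 and 7.64 CPM in P2-CTCF-KO and 5.99, 8.78, 7.06 and 5.60 CPM in wild-type libraries (log2 fold change 0.32, SE 0.23). Ccng1 was at 0.45 (SE 0.33), Zmat3 at 0.35 and Polk at 0.25. The mean level of the 10 was 1.99 to 2.66 against 1.74 to 2.25, so that C8.1 lay among the P2-CTCF-KO libraries. Amino acid stress and tRNA synthetase genes leaned less (24 of 27 higher, median 0.14), with Eprs at 0.12 and Iars at 0.01. Of 31 cell cycle genes 23 were higher (median 0.15). The tRNA synthetase and cell cycle lists were also higher in second than in first libraries. P2-CTCF-KO holds the second libraries D10.1-2 and D2.1-2, and wild type B9.3-2 alone. Mki67 was at 29.9, 31.3, 57.2, 102 and 102 CPM against 98.3, 41.3, 49.9 and 83.3 CPM, and did not separate the genotypes. The 4 interferon response genes tested were all lower (median -0.66).

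**Figure D1:**
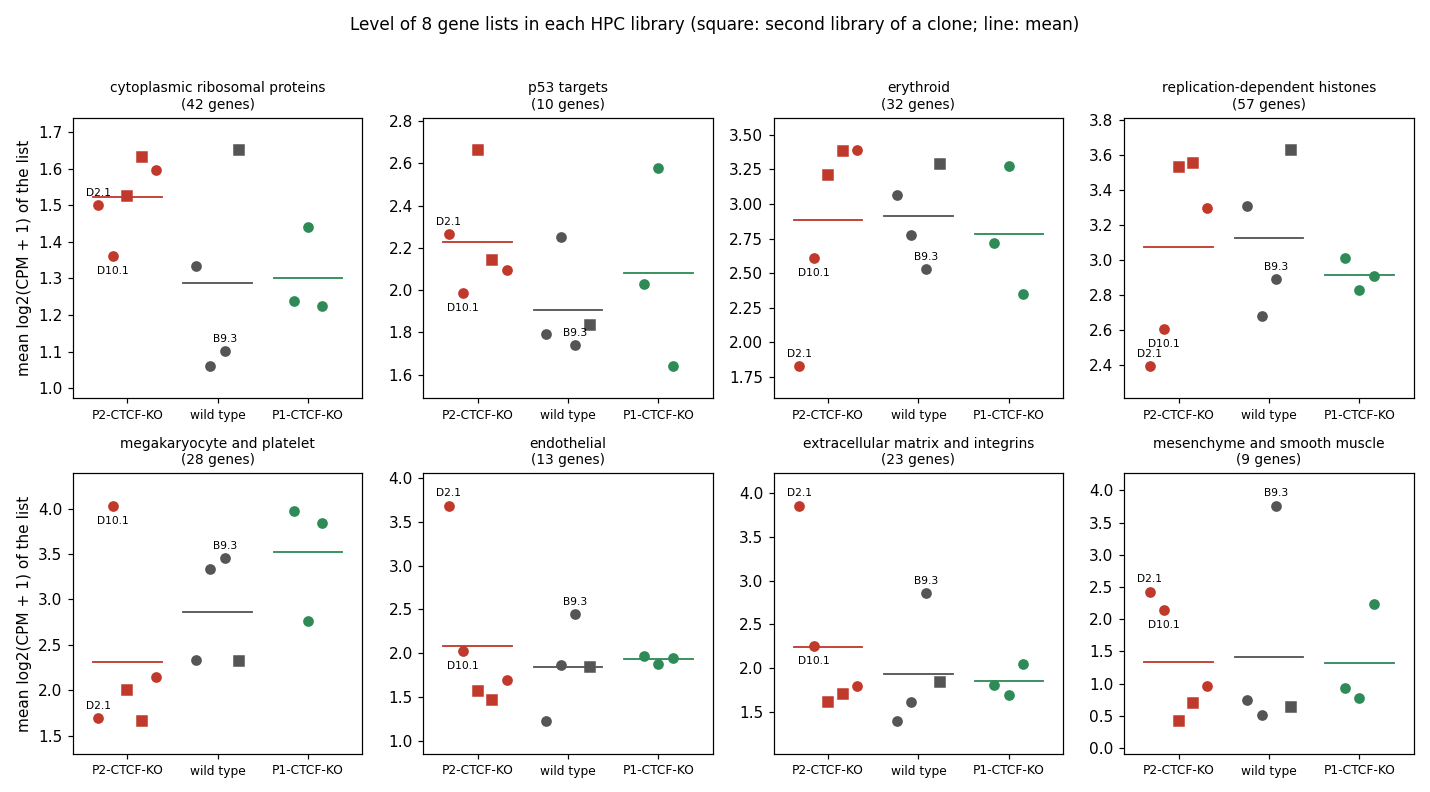
Each panel plots the mean log2(CPM + 1) of 1 gene list in each of the 12 HPC libraries, by genotype, with squares for second libraries of a clone and a line at the group mean; axes differ between panels and do not start at 0. The ribosomal protein levels of P2-CTCF-KO and wild type overlap through B9.3-2 (1.65), whereas D2.1 stands high in the endothelial and extracellular matrix panels (3.68 and 3.86) and D10.1 in the megakaryocyte panel (4.03).

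In bulk samples fewer cells of a type and less RNA per cell cannot be told apart. Megakaryocyte and platelet genes were higher in 2 of 28 tested (median -0.38). Without D2.1 it was 9 of 28 (median -0.16), and without both D2.1 libraries 16 of 28 (median 0.09). Their mean level was 4.03 in D10.1 but 1.66 to 2.15 in the other 4 P2-CTCF-KO libraries, and in wild type it was 3.34 and 3.46 in C8.1 and B9.3 and 2.33 and 2.32 in C6.1 and B9.3-2. D10.1 lay above all 4 wild-type libraries and the other 4 P2-CTCF-KO libraries below them. Thbs1, a platelet granule protein gene, was at 43.1, 249, 33.2, 28.0 and 56.4 CPM against 53, 196, 242 and 64.6 CPM. Vwf was at 9.23, 82.1, 11.7, 6.97 and 15.8 CPM against 19.5, 49.4, 58.3 and 17.0 CPM. Itgb3 and Itga2b, the partners of the platelet fibrinogen receptor, ran the same way: Itgb3 was at 199 CPM and Itga2b at 74.9 CPM in D10.1, and the other P2-CTCF-KO libraries did not pass 42.0 and 16.5 CPM. Without D10.1, 0 of 28 were higher and the median was -1.59. At an unadjusted p under 0.05, 25 were then lower, where 6.28% of 7336 genes were. D10.1 held the highest level of this list, so leaving it out had to lower the P2-CTCF-KO mean, and these counts are no test. That comparison also keeps the second libraries D10.1-2 and D2.1-2 against B9.3-2 alone in wild type. Still 0 genes of the 7336 were called against wild type, with a smallest edgeR adjusted p of 0.36.

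Erythroid genes mirrored the megakaryocyte genes in most libraries. Of 32 tested 19 were higher (median 0.03), and without D2.1, 30 of 32 (median 0.25). That comparison keeps the second libraries D10.1-2 and D2.1-2 against B9.3-2 alone in wild type. Hba-x, the embryonic alpha-like globin gene, was at 11.8, 29.8, 65.1, 87.4 and 106 CPM in D2.1, D10.1, D10.1-2, D2.1-2 and E9.1, against 67.6, 40.3, 23.1 and 76.2 CPM in wild type. D2.1 and D10.1 were the lowest of the 5 and E9.1 the highest, and the groups overlapped. Replication-dependent histone genes were also lowest in D2.1 and D10.1: their mean level was 2.40 and 2.61 there and 3.30 to 3.55 in the other 3, with a median log2 fold change of -0.02 over 57 genes (0.16 without D2.1). H1f4 was at 28.1, 27.6, 45.5, 82.3 and 72.8 CPM against 62.5, 28.2, 36.4 and 84.3 CPM.

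The lean of endothelial, matrix and mesenchymal genes turned on D2.1 and on wild-type B9.3. Endothelial genes were higher in 11 of 13 (median 0.63), but in 3 of 12 without D2.1 (median -0.30). Kdr, which encodes Flk1, was at 18.3, 9.61, 3.83, 3.69 and 4.32 CPM against 2.50, 6.98, 10.7 and 4.75 CPM. Cdh5, the endothelial cadherin gene, was at 17.6 CPM in D2.1 and 0.641, 1.16, 1.59 and 3.42 CPM in D10.1, D10.1-2, D2.1-2 and E9.1, against 0.805, 0.627, 0.821 and 2.31 CPM in wild type. Extracellular matrix and integrin genes went from 20 of 23 higher (median 0.69) to 5 of 20 (median -0.32) without D2.1. Fn1, fibronectin, was at 108 CPM in D2.1 and 76.1 CPM in B9.3, and at 4.86 to 23.7 CPM in the other 7 libraries. Mesenchyme and smooth muscle genes were higher in 1 of 9 (median -1.13), and without B9.3 the median was 2.15. Col1a1 was at 8.60, 17.6, 0.0891, 1.59 and 3.01 CPM against 2.06, 0.784, 50.1 and 0.973 CPM.

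Wnt pathway genes were higher in 7 of 8 (median 0.27; 0.01 without D2.1), Notch pathway genes in 3 of 6 (median 0.01), and BMP, Nodal and TGF-beta pathway genes in 13 of 18 (median 0.14; -0.12 without D2.1). Imprinted genes were higher in 11 of 16 (median 0.12; -0.18 without D2.1), and Igf2 was at 63.1 CPM in D2.1 and 70.8 CPM in B9.3, against 2.20 to 23.5 CPM in the other 7. Among long noncoding RNAs (11 of 17 higher, median 0.12), Pvt1 was at 33.3, 4.67, 19.2, 8.57 and 10.8 CPM against 8.14, 8.47, 5.66 and 6.94 CPM (log2 fold change 1.07, SE 0.47). Zinc finger genes (90 of 162 higher, median 0.05) and solute carriers (73 of 118, median 0.11) were close to all genes. Of 40 myeloid genes listed 6 were tested, and 2 of these were higher (median -0.30). Without D10.1 their median was -1.21, with 4 of 6 lower at an unadjusted p under 0.05, where 6.28% of 7336 genes were. D10.1 held the highest level of the myeloid list too (2.66), so these counts are no test. Without both D2.1 libraries the myeloid median was 0.07. No primitive streak, paraxial mesoderm, Hox or endoderm gene passed the filter on low counts.

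Libraries of 1 clone were no closer to each other than libraries of different genotypes. The distance between libraries was taken as the median absolute log2 difference over the 7422 genes. It was 0.330 between B9.3 and B9.3-2, 0.338 between D10.1 and D10.1-2 and 0.397 between D2.1 and D2.1-2. Pairs of different clones of 1 genotype ran from 0.199 to 0.455 (16 pairs, median 0.297), and pairs of different genotypes from 0.212 to 0.487 (47 pairs, median 0.334). Ranked among all 66 pairs from the closest, the within-clone pairs stood at 35, 38 and 56. Genes with over a 2-fold difference numbered 578, 781 and 1103. The nearest library to D2.1 was B9.3 of wild type (0.309), that to D10.1 was E9.1 of P1-CTCF-KO (0.222), and D10.1-2 and C6.1 of wild type were nearest to each other (0.217). D2.1-2 and E9.1 of P2-CTCF-KO were the closest pair of all (0.199). No library had the other library of its own clone as its nearest. A chi-square statistic per gene was 11.2 to 16.5 within clones, inside the range between clones of 1 genotype (2.56 to 26.0). It was scaled by summed counts without the TMM factors, so it does not separate counting error from differences of scale. The repeats were kept as separate libraries.

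**Figure D2:**
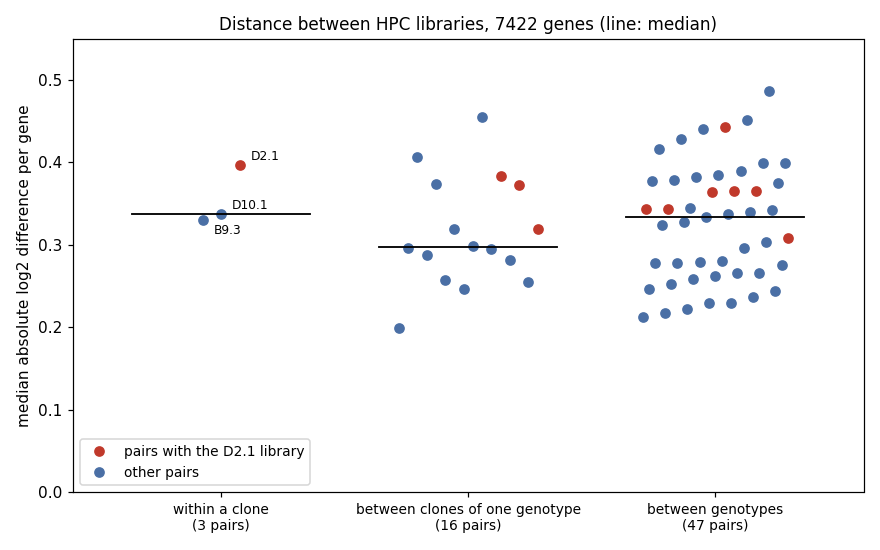
Each point is a pair of HPC libraries, placed by the median absolute log2 difference over 7422 genes and grouped by whether the pair shares a clone, a genotype or neither; lines are medians and red points include D2.1. The 3 within-clone pairs, at 0.330, 0.338 and 0.397, lie inside the range of both other groups.

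In most of the lists described, the second libraries differed from the first in the same direction in all 3 clones that had one. Erythroid genes were higher in the second library, by a median log2 ratio of 0.69 in D10.1, 1.73 in D2.1 and 0.81 in B9.3. Histone genes were higher by 0.94, 1.24 and 0.77, tRNA synthetase genes by 0.57, 0.74 and 0.57, and cell cycle genes by 0.60, 0.61 and 0.41. The median over all genes was -0.01, 0.00 and -0.03. Extracellular matrix genes were lower, at -0.57, -2.35 and -1.02, as were endothelial genes (-0.52, -2.25 and -0.63) and mesenchymal genes (-1.63, -1.89 and -3.18). Megakaryocyte genes were lower in D10.1-2 and B9.3-2 (-2.04 and -1.19) and level in D2.1-2 (-0.02). A log2 ratio over 1 in all 3 clones was found in 15 genes (0.202% of 7422), among them Hba-x (1.10, 2.79 and 1.68), Alas2, the erythroid heme synthesis gene (1.71, 2.49 and 1.18), and Reln (1.79, 1.55 and 1.38). A log2 ratio under -1 in all 3 was found in 128 genes (1.72%), among them the cytoskeletal genes Myh9 (-2.47, -1.42 and -1.45) and Flna (-2.12, -1.59 and -1.70) and the regulator Meis1 (-1.86, -1.29 and -1.41). What moved these genes was not tested.

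The first principal component of the 12 HPC libraries carried 51.1% of the variance of the 500 most variable genes and followed megakaryocyte genes on its positive and erythroid genes on its negative side. All 3 second libraries lay on the negative side, D10.1 going from 21.3 to -12.6, B9.3 from 12.5 to -12.9 and D2.1 from -2.77 to -23.7. The second component (32.1%) was led by Col4a1, Igf2, Gpc3, Cdh2 and Fn1. D2.1 stood alone on it at 33.4, followed by B9.3 at 13.2, and the other 10 libraries lay below 0.

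**Figure D3:**
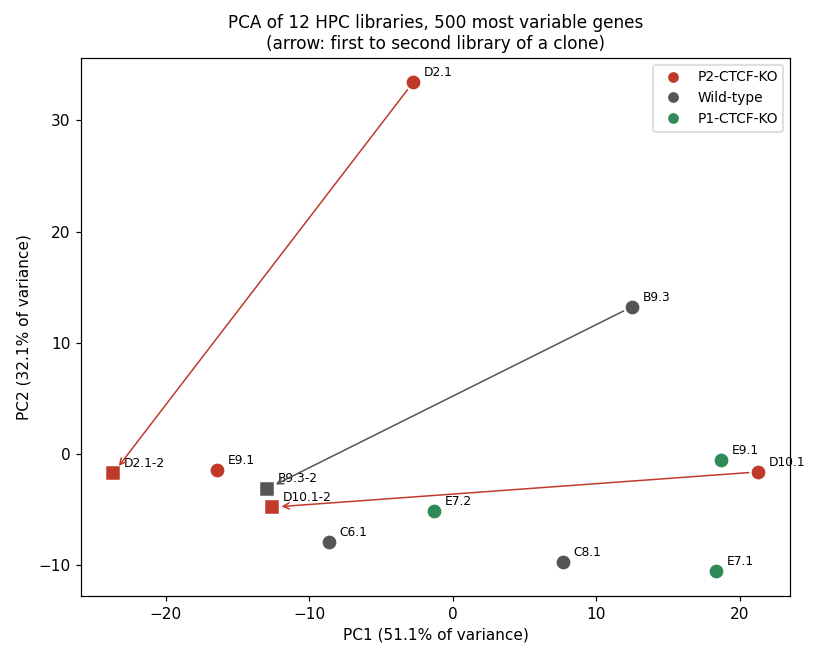
The 12 HPC libraries on the first 2 principal components of log2(CPM + 1) of the 500 most variable genes, colored by genotype, with arrows from the first to the second library of a clone. The 3 arrows point to the left, and D2.1 stands at 33.4 on the second component, apart from the rest; genotypes are mixed.

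The libraries also differed in genes of long span. Over 94 genes that span more than 500 kb, the median log2 ratio to the wild-type mean was 0.45, 0.41, -0.01, -0.53 and -0.36 in D2.1, D10.1, D10.1-2, D2.1-2 and E9.1, and -0.18, 0.24, 0.19 and -0.37 in C6.1, C8.1, B9.3 and B9.3-2. Their median log2 fold change between genotypes was 0.18, and -0.14 without D2.1. The 290 genes spanning under 5 kb were at 0.07 and 0.19.

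D2.1 held a set of transcripts well above their level in the other HPC libraries. Of 5964 genes with at least 20 counts in D2.1, 58 (0.973%) were more than 4 times as high there as in the highest of the 11 other HPC libraries. The same count was 5 in B9.3, 2 and 1 in P1-CTCF-KO E7.1 and E9.1, and 0 in the other 8, D2.1-2 included. Col4a2 (chr8:11312804-11449287), a basement membrane collagen gene, was at 32.8 CPM in D2.1 and 0.268 to 3.69 CPM in the other 11. Tnc, which encodes the matrix protein tenascin C, was at 15.1 CPM and at most 1.10 CPM elsewhere. Srgap1 was at 21.2 CPM against at most 1.95 CPM. The splicing factor gene Rbm20 was at 11.1 CPM against at most 0.537 CPM, Rspo3, a Wnt potentiator gene, at 6.48 against at most 0.328 CPM, and Ptprb, an endothelial phosphatase gene, at 11.6 against at most 0.973 CPM. Among the 58 were 4 endothelial genes (Nos3, Cdh5, Ets1 and Mmrn2), 6 matrix genes (Lama5, Tnc, Col4a1, Col4a2, Nid1 and Fbn2) and the developmental genes Gata4, Lin28a, Lef1, Notch3, Notch4, Ebf1 and Zfp423. Erg, an ETS factor gene, was at 10.01 CPM in D2.1 and 0.179 to 2.14 CPM in the other 8 libraries of the comparison, and Kit at 10.4 against 2.86 to 6.74 CPM.

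Most of these genes were mesoderm genes in the wild-type clones. Of the 58, 45 were tested between wild-type mesoderm and wild-type HPCs, and 41 of them (91.1%) were called higher in mesoderm and 0 lower, where 13.3% of 7343 genes were called higher. Those 41 were 70.7% of the 58 and 4.2% of the 976 mesoderm genes. The wild-type HPC libraries had entered the choice of the 58, since a low level there was required. Chosen against the 4 other P2-CTCF-KO HPC libraries alone, 165 genes (2.77%) were over 4 times as high in D2.1. Of 137 of them tested, 116 (84.7%) were called higher in wild-type mesoderm and 0 lower, which is 70.3% of the 165 and 11.9% of the 976. A gene near absent in HPCs passed the low-count filter of the wild-type test only through its mesoderm level. Both sets were picked for low levels in other HPC libraries, so their shares are no test and the 13.3% is not a like background.

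The match with day 4 mesoderm was incomplete gene by gene. Of the 58 genes, 31 lay within the range of the 9 mesoderm libraries, 22 lay above all of them and 5 below all, and 15 had a mesoderm median under 1 CPM. On the scale of the 21-library fit, Lef1 was at 5.01 CPM in D2.1 HPCs and at 5.18 to 34.4 CPM in mesoderm, and Lin28a at 3.64 against 5.03 to 16.1 CPM. Col4a2 was at 27.7 CPM against 4.95 to 20.5 CPM, and Tnc at 12.8 against 0.0599 to 4.59 CPM. Cdh5 was at 14.9 CPM, within a mesoderm range of 0.0599 to 23.3 CPM around a median of 0.695 CPM, and at 0.0786 CPM in the mesoderm library of clone D2.1 itself. Primitive streak genes were almost absent: Eomes had 16 counts and Mixl1 6 in D2.1, against 0 or 1 in the other 8, and T had 1 and Mesp1 0. The summed CPM of the 19 primitive streak genes was 4.65 in D2.1 and at most 0.549 in the other 8, while that of the 32 endothelial genes was 204 against 22.1 to 83.8.

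A score over the 200 genes most raised in wild-type mesoderm and the 200 most raised in wild-type HPCs placed D2.1 between the stages. Its mesoderm score, the mean log2(CPM + 1), was 2.26, against 1.03, 1.10, 0.97 and 1.01 in D10.1, D10.1-2, D2.1-2 and E9.1 and 2.84 to 3.16 in mesoderm libraries. Its HPC score was 2.27, against 3.85, 3.10, 2.84 and 3.06 in the same 4 libraries and 0.60 to 0.79 in mesoderm. The genes were chosen on wild-type libraries, so the scores of P2-CTCF-KO libraries are free of that choice and the wild-type scores are not. D2.1-2, the second library of the clone, had the lowest HPC score of the other 4 but no raised mesoderm score.

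**Figure D4:**
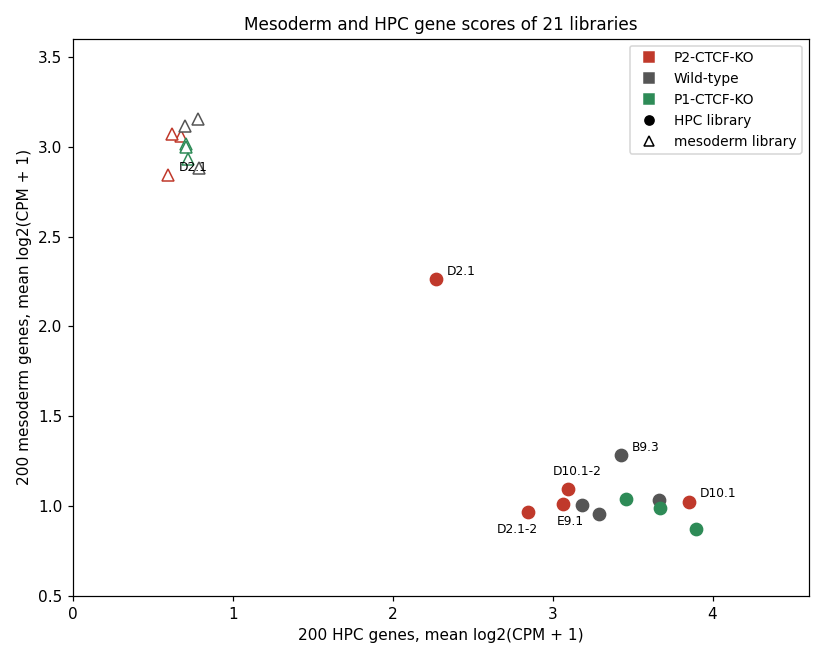
Each of 21 libraries is placed by the mean log2(CPM + 1) of 200 HPC genes and of 200 mesoderm genes, both chosen between wild-type mesoderm and wild-type HPCs; circles are HPC and triangles mesoderm libraries. D2.1 lies at 2.27 and 2.26, between the mesoderm cluster and the other HPC libraries.

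Leaving D2.1 out changed which groups leaned and left the count of called genes at 0. Of 7181 genes then tested, 79 were higher (1.1%) and 71 lower (0.989%) at an unadjusted p under 0.05, with a median of 0.01. The endothelial, matrix, Notch, imprinted and BMP pathway medians changed sign. The ribosomal protein and p53 target medians held at 0.47 and 0.42, and erythroid and histone medians went to 0.25 and 0.16. Without D10.1 instead, 195 genes were higher (2.66%) and 461 lower (6.28%).

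Against the P1-CTCF-KO HPCs, too, 0 of 7422 genes were called. At an unadjusted p under 0.05, 379 were higher (5.11%) and 271 lower (3.65%), and the smallest adjusted p was 0.527; DESeq2 called 0 and put 306 higher and 277 lower. Without D10.1, 259 genes were called, 20 higher (0.273% of 7336) and 239 lower (3.26%), of which 22 were among the 28 megakaryocyte genes. D10.1 held the highest megakaryocyte level of the P2-CTCF-KO libraries, so the 22 are no test of that list. The megakaryocyte level was 3.97, 2.76 and 3.84 in E7.1, E7.2 and E9.1 of P1-CTCF-KO. Runx1 was at 159, 72.5 and 133 CPM in those libraries, a log2 difference of -0.72 between P2-CTCF-KO and P1-CTCF-KO.

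The effect of the deletion in HPCs was compared with that in the Flk1+ mesoderm of the same clones, in a fit of 21 libraries and 9170 genes. The difference between the effects was called in 2 genes (0.0218%), Cbfa2t3 and Ikzf2, which P2-CTCF-KO mesoderm held at a lower level than wild-type mesoderm. At an unadjusted p under 0.05 the difference was above 0 in 534 genes (5.82%) and below 0 in 109 (1.19%). Cbfa2t3 (chr8:125149035-125223009) was at 0.393, 0.299 and 0.567 CPM in P2-CTCF-KO mesoderm and 2.90, 2.85 and 3.11 CPM in wild-type mesoderm. In HPCs it was at 13 to 20.7 against 14.8 to 20.3 CPM. Its log2 fold change was -2.79 in mesoderm and -0.15 in HPCs, a difference of 2.64 (SE 0.34, edgeR adjusted p = 0.00214). Ikzf2 (chr1:69577783-69732534), an Ikaros family factor gene, was at 0.707, 0.838 and 0.441 CPM against 2.90, 4.89 and 3.75 CPM in mesoderm. In HPCs it was at 7.57 to 14.3 against 9.41 to 13.8 CPM, a difference of effects of 2.54 (SE 0.38, edgeR adjusted p = 0.00789). Mesoderm counts of both genes are low.

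Of the 9 genes called lower in P2-CTCF-KO mesoderm (0.0981%), none was called in HPCs, where all 9 had an adjusted p of 1. Their log2 fold changes in HPCs ran from -0.48 (Cntln) to 0.50 (Jazf1), with Mbnl1 at -0.28, Ptpre at -0.31, Stat5b at -0.10, and Airn, which lies antisense in Igf2r, at 0.40. Apart from Cbfa2t3 and Ikzf2, their difference between stages did not pass, with Airn and Jazf1 at adjusted p = 0.0822 and 0.0887 in edgeR. Runx1 itself was at 6.37, 1.74 and 5.74 CPM in P2-CTCF-KO mesoderm and 10.8, 13.2 and 3.40 CPM in wild-type mesoderm. Its effect in HPCs and mesoderm differed by 0.67 (SE 0.70, edgeR adjusted p = 0.97). Pecam1, Etv6, Ikzf1 and Flt1, which the study also names, were at log2 fold changes of 0.27, -0.14, -0.09 and 0.61 in HPCs. In mesoderm they were at -4.44, -1.27, -3.55 and -2.45. None of their differences between stages was called (edgeR adjusted p = 0.282, 0.798, 0.294 and 0.389). T and Eomes, named too, went the other way in mesoderm, both at 2.68. In HPCs T had 0 or 1 counts and Eomes 0 to 16. Erg was at -8.46 in mesoderm, with 0 counts in the P2-CTCF-KO libraries of D2.1 and D10.1, and at 2.12 in HPCs. The differences of T, Eomes and Erg were not called either (edgeR adjusted p = 0.9996, 0.967 and 0.282).

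**Figure D5:**
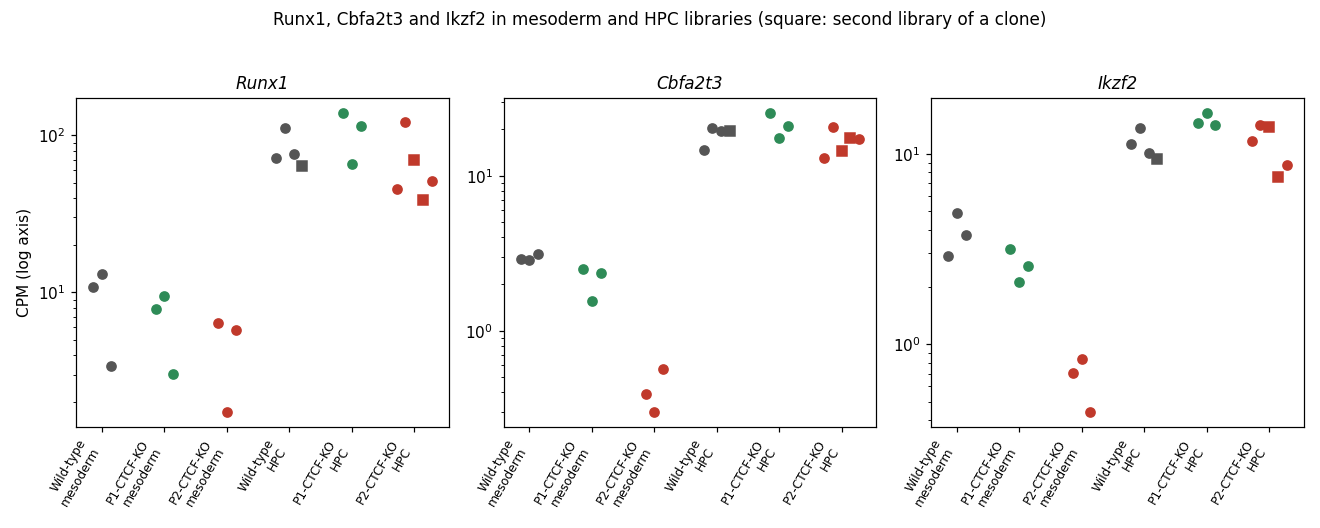
CPM of Runx1, Cbfa2t3 and Ikzf2 on a log axis in each mesoderm and HPC library by genotype, from the 21-library fit, with squares for second libraries of a clone. The 3 P2-CTCF-KO mesoderm libraries lie below all wild-type mesoderm libraries for Cbfa2t3 and Ikzf2, and the HPC libraries of the genotypes overlap for all 3 genes.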

How the data were processed

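Poly(A)-minus RNA was measured in HPC and mesoderm libraries made with a directional kit. The counts were deposited by the authors as raw reads per gene over exons and introns (STAR alignment to mm9, duplicates removed, featureCounts); the annotation and strand setting of the counting are not given in the sources used here. Peak positions of CTCF (416B cells) and ATAC-seq (HPCs) were used as the authors deposited them, for coordinates only, and sequences were read from NCBIM37, the same build as mm9. Groups came from the labels, and 0 columns of per-sample values were left unused.

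The 12 HPC libraries were fitted with edgeR 4.0.16 (R 4.3.3; TMM scaling, filterByExpr with a minimum count of 10, quasi-likelihood test, Benjamini-Hochberg adjustment). A gene was called at an adjusted p under 0.05 with a log2 fold change beyond 1. Levels of a list are mean log2(CPM + 1). A stage contrast used 21 HPC and mesoderm libraries, without and with clone as a block, since every clone had both stages. Alternatives were DESeq2 1.42.0, limma 3.58.1 (with clone as a random effect), other scalings, filters and pseudocounts, and leaving out each library. Libraries of 1 clone were entered as separate samples, so p-values measure the spread between libraries; the study counts them as independent experiments. The scripts were checked on simulated counts.

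Genes to name were drawn by rule from Runx1 and its neighbours, any called gene and the genes the study names with an expression result. The rule also drew the 4 tested members of highest mean CPM in each list and the 15 genes of highest ratio in D2.1. Not all genes drawn are printed. Genes without overlap, the Runx family and other list members were named after their values were seen. The comparison, the gene lists and the tests were chosen with earlier results of these data known. Of totals of 7805102 to 13513677 counts, 320463 to 596488 lay outside the multi-locus entries and Cmss1, Cdk8, Lars2, Camk1d and Gphn. Low-level genes are therefore imprecise, and these limits cover counting error only.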

Additional observations from a re-analysis of the deposited data

Results flagged for a closer look

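In groups of 4 or 5 libraries, 82 sets of values were searched for 1 library whose distance to its nearest neighbour took up most of the range of the group. There were 23. Chance flags about 1 in 20 sets of independent values, but many of these genes were chosen after their values were seen and share libraries, so the number found is not set against that rate. D2.1 was the highest of the P2-CTCF-KO libraries in the mesoderm gene score (2.26), the levels of the endothelial (3.68) and extracellular matrix lists (3.86), Cdh5 (17.6 CPM), Erg (10.01 CPM), Fn1 (108 CPM) and Kit (10.4 CPM). D10.1 was the highest in the megakaryocyte and platelet level (4.03), Thbs1 (249 CPM), Itgb3 (199 CPM), Vwf (82.1 CPM), Itga2b (74.9 CPM), Meis1 (79.0 CPM) and Itsn1 (54.8 CPM). E9.1 was the highest in Rpl4 (15.6 CPM), and D10.1-2 in Ccng1 (9.54 CPM).

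Among the wild-type libraries, B9.3 was the highest in the mesenchyme and smooth muscle level (3.76), Col1a1 (50.1 CPM), Igf2 (70.8 CPM) and Tgfbr3 (14.4 CPM) and the lowest in Abcg1 (1.81 CPM). B9.3-2 was the highest in Cdh5 (2.31 CPM), and C8.1 in Runx3 (2.98 CPM). What set these libraries apart was not tested.

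The effect of the P2-CTCF-KO deletion differed between HPCs and mesoderm in Ikzf2, by 2.54 on the log2 scale, and in Cbfa2t3, by 2.64 (edgeR adjusted p = 0.00789 and 0.00214). Over the alternatives run, the adjusted p lay between 6.42e-05 and 0.0174 for Ikzf2 and between 6.42e-05 and 0.0154 for Cbfa2t3.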

How the results depend on the processing

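The count of genes called between P2-CTCF-KO and wild-type HPCs was 0 in every alternative run, and Runx1 stayed below wild type (-0.67 to -0.03) without passing. Against P1-CTCF-KO, leaving out single libraries gave 0 to 259 called genes, 259 without D10.1. DESeq2 called 37 genes for the difference between the stages, where edgeR called 2. With second libraries in place of the first, the median of the Runx family was -0.54, of megakaryocyte genes -1.25 and of mesenchymal genes 0.22. With both D2.1 libraries left out, the endothelial median was -0.16, the matrix median -0.30, the megakaryocyte median 0.09 and the myeloid median 0.07. Leaving out single libraries moved the median of megakaryocyte genes between -1.59 and -0.16, of endothelial genes between -0.30 and 1.03, of mesenchymal genes between -1.56 and 2.15 and of matrix genes between -0.32 and 1.52. With a pseudocount of 5 the within-clone distances of D2.1, D10.1 and B9.3 were 0.187, 0.156 and 0.156. The mesoderm score of D2.1 exceeded the mean of the other P2-CTCF-KO HPC libraries by 1.24, by 1.38 with 100 genes, 1.15 with 400 genes and 1.98 with a pseudocount of 0.1. The 58 genes high in D2.1 became 379 at a log2 ratio over 1, 6 at a ratio over 3 and 165 against P2-CTCF-KO libraries alone. The cause of these changes was not tested. With clone as a random effect the consensus correlation was -0.16. Within HPCs no paired analysis was possible because each clone belongs to 1 genotype. In the stage contrast, where a clone has both stages, a replicate block on clone again called 2 genes, Ikzf2 at 2.43 and Cbfa2t3 at 2.71 (edgeR adjusted p = 0.0174 and 0.0154). This fit was added after the data were seen. The deviations of a clone in the 2 stages correlated at -0.07 to 0.20 over genes, above 0.1 in 3 of 9 clones. Most genes hold few counts beside ribosomal RNA, which limits what these libraries can show.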
